A study of Mus musculus with 24 samples.

Results

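The microRNAs (miRNAs) described here are mmu-miR-451a, mmu-miR-144-3p and mmu-miR-144-5p, the mature products of the neighbouring genes Mir451a and Mir144. They were taken by name, and they are 3 of the 1881 mouse miRNAs on the array. Mouse liver RNA was hybridized to 24 one-colour Agilent miRNA arrays, with 3 male mice (numbered 7, 9 and 10 in the labels) and 1 array per mouse in each of 8 groups. Each liver was cut into pieces that were either put into a stabilizing reagent at once (0 h) or first left at room temperature for 96 h. Total RNA with small RNAs was isolated with the miRNeasy Kit from 0 h and from 96 h tissue, each with and without DNase digestion, which gives 4 groups. The other 4 groups came from 0 h tissue isolated with the RNeasy Kit and DNase, a preparation depleted of small RNAs but, by the study's own methods, not free of them. It was hybridized untreated, or after incubation with 0 U, 0.026 U or 0.67 U RNase and a second isolation with the miRNeasy Kit. Strain and age of these mice are not given in the sources used here, nor whether blood was flushed from the livers. For mouse 9 the labels contradict each other on which RNase array had the lower and which the higher dose, and the descriptions, which the RNA integrity numbers follow, were used.

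miR-144 and miR-451a are made from 1 primary transcript that the factor GATA-1 switches on in maturing red blood cells. miR-451a is one of the most abundant miRNAs of red blood cells, and it is commonly read as a sign of blood in a tissue or plasma sample. The miR-144 precursor is cut into its 2 arms by the enzyme Dicer. The miR-451a precursor is too short for Dicer: it is cut by Argonaute 2, the protein that also carries the finished miRNA, and the end is then trimmed back.

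The sequences show how differently the miRNAs lie in their hairpins. RefSeq (GRCm38.p6) places the Mir144 hairpin at chr11:78073005-78073070 and the Mir451a hairpin at chr11:78073170-78073241, both on the plus strand with 99 bases between them. Apart from Mir451b, which is annotated on the opposite strand over Mir451a, no other gene of the RefSeq table overlaps this stretch, and the nearest ones are Flot2 on one side and Eral1 on the other. The array design names an older build, and none of its positions were used. The hairpins are printed 5′ to 3′ with the mature miRNAs in capitals:
Mir144: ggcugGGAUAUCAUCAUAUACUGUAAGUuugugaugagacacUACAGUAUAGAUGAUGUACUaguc
Mir451a: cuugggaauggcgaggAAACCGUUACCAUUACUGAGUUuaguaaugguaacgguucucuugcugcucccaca
In Mir144 the 5p arm covers positions 6 to 28 and the 3p arm positions 43 to 62 of 66, and the longest stretch of the 5p arm that is complementary to the 3p arm without a break is 9 bases. In Mir451a the mature miRNA covers positions 17 to 38 of 72. Its bases 2 to 17 are complementary, without a break, to a stretch later in the same hairpin, so that it runs up one side of the stem and into the loop.

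The mature sequences are shown with the seed, bases 2 to 8 from the 5′ end, in capitals, because the seed decides much of which messenger RNAs a miRNA can bind. The miR-101 family is shown beside them because its seed is close to that of miR-144-3p:
mmu-miR-451a: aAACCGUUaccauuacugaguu
mmu-miR-144-3p: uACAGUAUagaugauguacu
mmu-miR-144-5p: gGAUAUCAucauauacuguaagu
mmu-miR-101a-3p: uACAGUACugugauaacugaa
mmu-miR-101b-3p: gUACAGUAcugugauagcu
mmu-miR-101c: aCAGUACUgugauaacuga
The members of the locus have 3 different seeds, and none of the 1679 mature miRNAs of the table shares bases 2 to 8 with any of them. The 6 bases ACAGUA, bases 2 to 7 of miR-144-3p, are also bases 2 to 7 of miR-101a-3p, and they stand at bases 3 to 8 of miR-101b-3p and at bases 1 to 6 of miR-101c. G and C make up 30% of the bases of miR-144-3p, 30.4% of miR-144-5p and 36.4% of miR-451a, against a median of 52.2% over the table. Only 1.61% of mature miRNAs have a share as low as that of miR-144-3p or lower, against 10.2% for miR-451a.

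Each member was measured by 2 probes with 15 spots each. The signal is the background-subtracted fluorescence of a miRNA in intensity units, without scaling between arrays, and a miRNA counts as detected where the scanner software flagged it so. The lowest signal of any detected miRNA was 0.672 to 1.62 units, depending on the array. The RNA integrity number (RIN), on which higher values mean more intact long RNA, was 8.8 to 9.0 in total RNA at 0 h and 2.3 to 2.5 at 96 h. In depleted RNA it was 9.0 to 9.4 before RNase, 6.0 to 7.0 after the lower dose and 2.4 to 2.9 after the higher one. The summed signal of all detected miRNAs was 55237 to 163493 units in total RNA at 0 h, 187378 to 362324 at 96 h, 7125 to 10043 in depleted RNA before RNase and 36325 to 177642 after it. The 8 arrays of each mouse sat on a slide of their own that was scanned on its own day, and these 3 factors cannot be told apart.

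miR-451a was detected on all 24 arrays. In mice 7, 9 and 10 its signal was 217, 312 and 401 units at 0 h with DNase, and 272, 343 and 527 units at 0 h without DNase. At 96 h it was 150, 190 and 205 units with DNase and 197, 197 and 198 units without. The 0 h arrays with small RNAs all lay above the 96 h arrays, and both sets lay far above the depleted RNA. Untreated depleted RNA gave 7.03, 6.57 and 2.65 units, and the 0 U arrays gave 5.43, 6.16 and 4.99 units. At 0.026 U the signals were 8.15, 9.74 and 6.27 units, and at 0.67 U they were 7.62, 8.54 and 8.42 units. In order of the mean, the groups ran from 0 h without DNase (381 ± 132 units, SD, n = 3), 0 h with DNase (310 ± 92.3), 96 h without DNase (197 ± 0.504) and 96 h with DNase (182 ± 28.6) to depleted RNA at 0.67 U (8.19 ± 0.497), 0.026 U (8.05 ± 1.74), 0 U (5.53 ± 0.593) and untreated (5.41 ± 2.41). Neighbours in this order overlapped, except between the 0 h and the 96 h groups, between total and depleted RNA, and between 0.026 U and 0 U.

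miR-144-3p was detected on 7 of 24 arrays. In mice 7, 9 and 10 it gave 5.70, 9.23 and 22.2 units at 0 h with DNase, and 19.1, 26.8 and 41.9 units at 0 h without DNase. All 6 of these arrays detected it. At 96 h without DNase the signals were 3.18, 2.56 and 7.89 units, and only the array of mouse 10 was flagged as detected. At 96 h with DNase they were -0.86, -0.47 and -0.72 units, which is below the local background, and all 12 depleted arrays gave -0.88 to -0.02 units without detection. Neighbouring groups overlapped in the order 0 h without DNase (29.2 ± 11.6 units, SD, n = 3), 0 h with DNase (12.4 ± 8.71) and 96 h without DNase (4.55 ± 2.92), and this last group lay above the others, which overlapped among themselves. The counts of single spots well above background follow the same order: 90 of 90 at 0 h without DNase, 77 of 90 at 0 h with DNase, 2 of 90 at 96 h without DNase and 0 of 90 at 96 h with DNase.

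miR-144-5p, the other arm of the same hairpin, was not detected on any array. Its signals at 0 h were nevertheless 1.12 to 1.91 units in total RNA with and without DNase, while the remaining arrays gave -0.83 to 0.52 units. The 6 arrays of intact total RNA thus lay above all others without reaching the detection flag. Of its spots, 1 of 90 was well above background at 0 h with DNase and 0 of 90 without. miR-451b, annotated on the strand opposite miR-451a, was not detected on any array either, and its signals ran from -1.60 to 1.94 units.

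**Figure D1:**
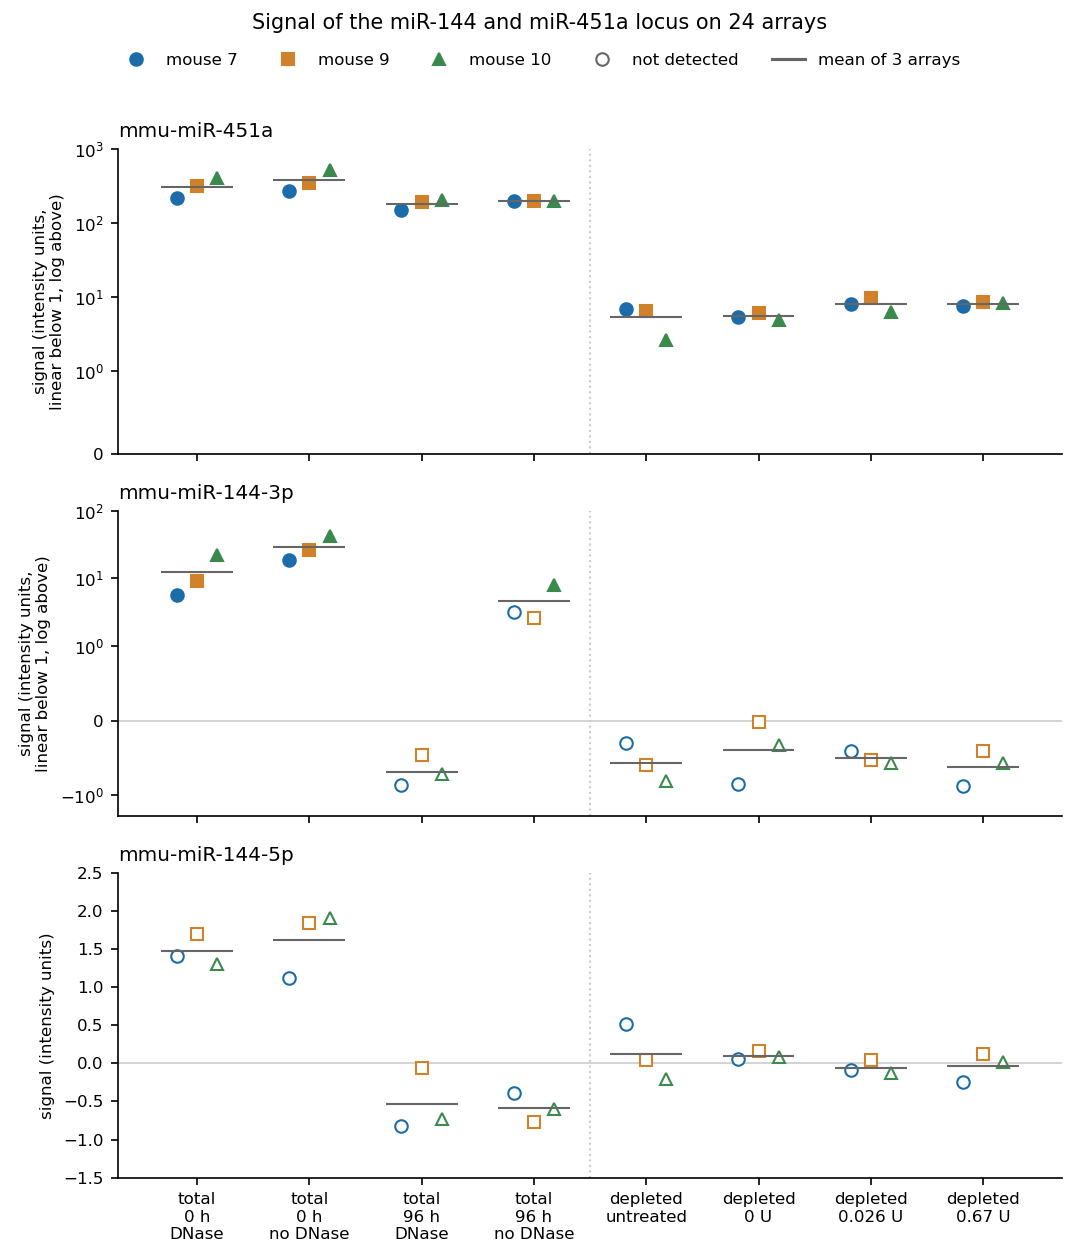
Signal of miR-451a, miR-144-3p and miR-144-5p in intensity units (vertical axes) on each array of the 8 groups (horizontal axis), with 1 symbol per mouse, open where the miRNA was not detected and a bar at the mean of 3 arrays. The upper panels are linear below 1 and logarithmic above. miR-451a stayed at 150 units or more at 96 h, while miR-144-3p was below 0 at 96 h with DNase, and miR-144-5p was above 1 unit only at 0 h in total RNA.

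The mice kept 1 order at 0 h: mouse 7 was lowest and mouse 10 highest for miR-451a and for miR-144-3p, with and without DNase. As a share of the summed signal of all detected miRNAs, miR-451a at 0 h with DNase was 0.392% in mouse 7, 0.339% in mouse 9 and 0.367% in mouse 10, so that the order was not that of the signals. Without DNase the shares were 0.206%, 0.259% and 0.322%, in the order of the signals.

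The first question was what 96 h of tissue storage did to the locus. The members had been chosen with their storage behaviour known, so the tests of this comparison describe them and are not independent evidence. The signal of miR-451a fell in every mouse, to 1.45-fold, 1.65-fold and 1.95-fold below the 0 h value with DNase in mice 7, 9 and 10, and to 1.38-fold, 1.74-fold and 2.67-fold below it without DNase. The 0 h and 96 h arrays did not overlap. Its 2 probes gave the same picture, with falls of 1.39-fold to 2.75-fold for one and 1.38-fold to 2.61-fold for the other over the 6 pairs of arrays. Over both DNase states the mean fell by 0.82 on the log2 scale of the unscaled signal (two-sided exact permutation of arrays within mice, p = 0.00926, the smallest that the design can give, and the same after Benjamini-Hochberg adjustment over 9 such tests). As a share of the summed signal of all detected miRNAs it fell from 0.366% ± 0.0267 (SD, n = 3) to 0.0720% ± 0.0270 with DNase, and from 0.263% ± 0.0582 to 0.0937% ± 0.0157 without DNase. Over both states the share was 3.84-fold lower at 96 h (p = 0.00926 in the same exact permutation test).

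miR-144-3p fell further. With DNase it went from detection in 3 of 3 mice to detection in 0 of 3. Set against the lowest detected signal on each 96 h array, its signal was at least 3.55-fold, 6.21-fold and 16.6-fold lower in mice 7, 9 and 10. That floor is no detection limit for miR-144-3p itself. Without DNase it went undetected in mice 7 and 9 at 3.18 and 2.56 units, above floors of 1.42 and 1.48. Folds and differences given as at least, here and below, are bounds only relative to the floor. Without DNase the measured signals were 5.99-fold and 10.5-fold lower in mice 7 and 9, without detection at 96 h. In mouse 10 the signal was 5.30-fold lower, and miR-144-3p was flagged as detected at 96 h with 2 of 30 spots well above background. Over both DNase states the unscaled signal, with values below 1 unit set to 1, fell by 3.10 on the log2 scale (p = 0.00926 in the same exact permutation test). For miR-144-5p, which was not detected at either time, all 6 of the 0 h arrays lay above all 6 of the 96 h arrays, and no fold is given. The same exact permutation test gave p = 0.00926. Every 96 h value was set to 1 unit in it, so it compared signals without detection with a floor and shows no measured fall.

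Side by side, miR-451a kept more of its signal than miR-144-3p in all 6 pairs of arrays. The difference between their falls was at least 1.30, 1.91 and 3.09 on the log2 scale in mice 7, 9 and 10 with DNase. Without DNase the difference, from the measured signals near background, was 2.12 and 2.59 in mice 7 and 9, and 0.99 in mouse 10. The mean with DNase was at least 2.10 ± 0.91 (SD, n = 3 mice). These are descriptions without a test, and the bounds depend on the floor. With single probes, whose floor was the dimmest probe with most spots above background, the mean with DNase was at least 0.40 ± 0.84 from the first probes and at least 0.61 ± 0.84 from the second, which is within the spread between mice. Without DNase single probes gave at least 1.42 ± 0.39 and 1.51 ± 0.46.

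**Figure D2:**
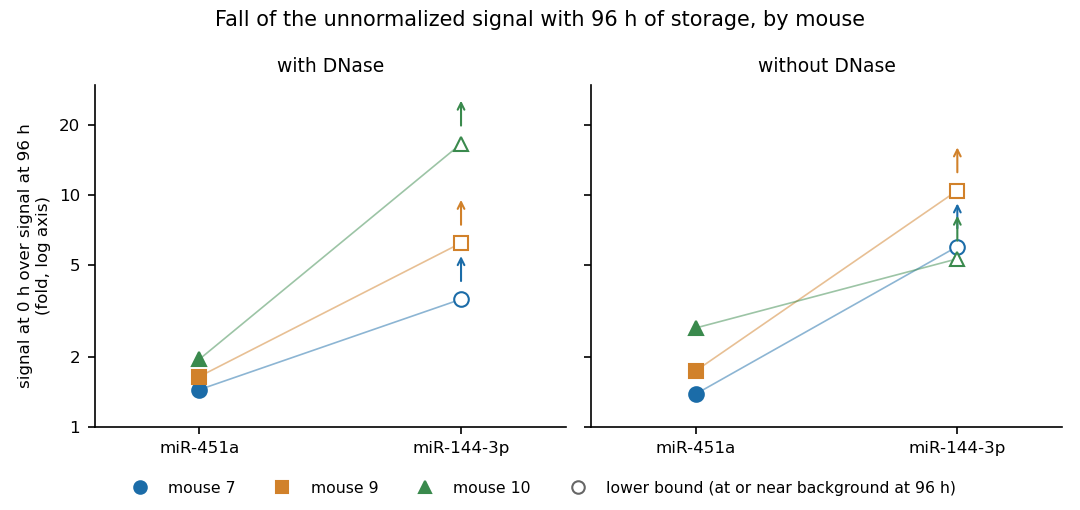
Fold by which the unscaled signal at 0 h exceeded that at 96 h (vertical log axis) for miR-451a and miR-144-3p, with 1 line per mouse and 1 panel per DNase state. Open symbols with arrows mark arrays where miR-144-3p had few or no spots above background at 96 h. They are bounds relative to the lowest detected signal with DNase, and ratios to the measured signal without DNase. Every line rises from miR-451a, at 1.38-fold to 2.67-fold, to miR-144-3p, at 3.55-fold to 16.6-fold.

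For tests across miRNAs the signals were put on the glog2 scale of variance stabilizing normalization (vsn), which is close to log2 for bright miRNAs and linear near background. A miRNA was called where the limma adjusted p was under 0.05 and the change was at least 1. On this scale miR-451a changed by -2.56 with DNase (SE 0.34, limma adjusted p = 6.70e-07) and by -2.57 without DNase (SE 0.34, limma adjusted p = 7.12e-07), in 3 of 3 mice each. miR-144-3p changed by -5.42 with DNase (SE 0.50, limma adjusted p = 7.27e-09) and by -4.07 without DNase (SE 0.50, limma adjusted p = 2.84e-07), again in 3 of 3 mice. Because its signals at 96 h with DNase lay below 0, the size of that change depends on the scale near background. Its group means were at least 25.4-fold apart with DNase after vsn scaling, and at least 7.16-fold apart without any scaling. Both tested members were thus among the 21.6% of the 631 miRNAs kept that were called lower with DNase and the 23% called lower without DNase. miR-144-5p was detected on too few arrays to be kept. miR-144-3p was detected on 7 arrays and passed the filter only through total RNA at 0 h, where it was high. Its tests as lower, and its place among the 631, are therefore descriptions. Of the 631 miRNAs, 2 had a more negative change with DNase than miR-144-3p, and 102 had a more negative one than miR-451a. The difference between the storage changes with and without DNase was 1.36 for miR-144-3p (SE 0.70, limma adjusted p = 0.397) and -0.01 for miR-451a (SE 0.47, limma adjusted p = 0.995). The sign of the difference for miR-144-3p turned with upper-quartile scaling (-1.39 over all miRNAs) and after quantile normalization (-0.75), and it stayed uncalled. Of the 631 miRNAs, 1.11% were called for that difference, and neither member was among them.

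How far miR-451a fell depended on the scaling of the arrays. The median change of the kept miRNAs with DNase was 2.47 under vsn, 3.46 without normalization and 0.39 with vsn fitted on the kept miRNAs. Without normalization the changes of miR-451a were -0.74 with DNase (limma adjusted p = 0.0553) and -0.89 without DNase, and scaled to spike-in controls they were -0.73 and -0.84. These values miss the 2-fold threshold. It fell under each of the 8 scalings compared, with changes of -4.31 to -0.73 with DNase, and of -5.03 to -4.12 relative to the median of the kept miRNAs. miR-144-3p was called lower under all 8 scalings in both DNase states. Under upper-quartile scaling, which sets the 75th percentile of each array equal, its change with DNase was close to that of miR-451a. It was -3.34 against -3.46 where the percentile was taken over the 122 miRNAs found on every array, and -4.18 against -4.12 where it was taken over all of them. With DNase the 96 h signals of miR-144-3p were below 0 and were set to a floor of 1 unit, which limits the size of its change. Without DNase it changed by -4.59 and -5.57 under these scalings, with medians over both tested members of -3.79 and -4.92. The RIN and the summed signal changed with storage as given above, and their part in these falls was not tested. In such bulk RNA, fewer blood cells and less of the miRNA per cell cannot be told apart.

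**Figure D3:**
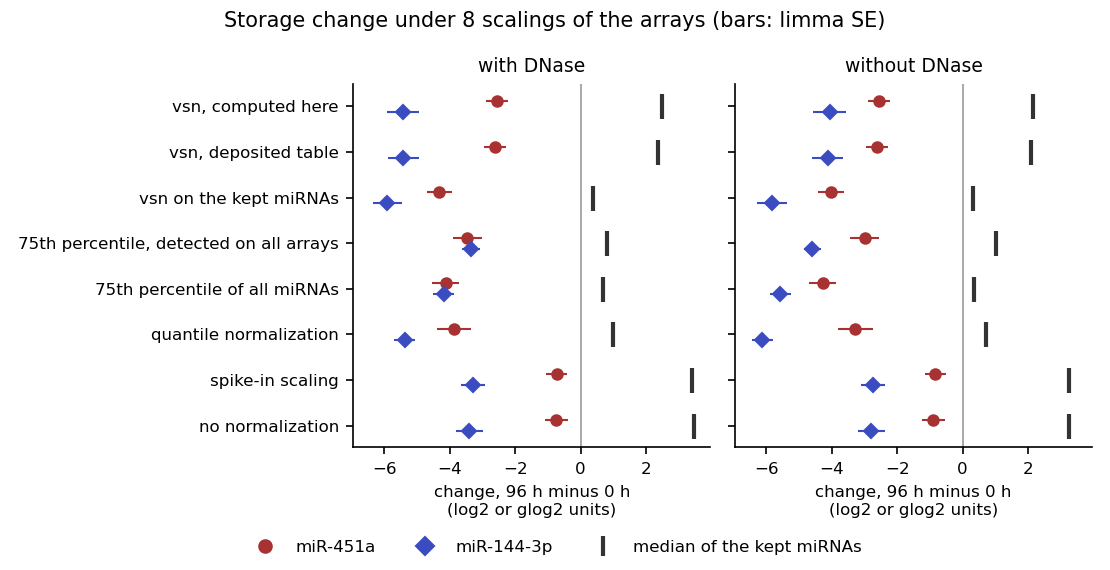
Change from 0 h to 96 h (horizontal axis, log2 or glog2 units) of miR-451a and miR-144-3p under 8 scalings of the arrays (rows), with limma standard errors as bars, and the median of the 631 kept miRNAs as a vertical tick. Both members lie left of 0 and of the median in every row, and miR-451a lies near -0.7 to -0.9 in the rows for spike-in scaling and no normalization.

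The locus was then set beside lists of miRNAs of blood and liver, all chosen with earlier results of these data known. Of 14 other miRNAs abundant in red blood cells that were on the array, 9 were kept, and with DNase 8 of them fell and 1 rose at 96 h. Of all 631 kept miRNAs, 21.6% were called lower with DNase and 23% without. Called higher were 60.4% with DNase and 60.5% without. The list's median change was -3.22, against 2.47 for all kept miRNAs. miR-96-5p, among those that fell, passed the filter only through total RNA at 0 h, so its fall is a description. miR-16-5p, which restrains the cell cycle and is abundant in blood and in most tissues, went from 214 ± 45.8 to 100 ± 88.1 units (SD, n = 3; change -3.22, limma adjusted p = 4.41e-06). The miRNA that rose was miR-486a-5p, named after its values were seen, which is made in erythroid cells and in muscle. It went from 4.21 ± 1.93 to 31.5 ± 0.427 units (change 1.02, SE 0.34, limma adjusted p = 0.00847). Its direction depended on the scaling: the change was above 0 under 5 of the 8 scalings and below 0 under 3, between -0.82 and 3.04, and it was called under 3, each time as higher. Without DNase it changed by 1.34, was below 0 under 3 of the 8 scalings and was called under 5.

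Among miRNAs of white blood cells 6 of 8 were kept, of which 5 fell and 1 rose, with a median change of -2.98. miR-142a-3p, found throughout blood-forming lineages, went from 36.7 ± 22.2 to 2.32 ± 2.12 units, with detection on 1 of 3 arrays at 96 h (change -5.10, limma adjusted p = 1.71e-08). Like miR-142a-5p, also among those that fell, it passed the filter only through total RNA at 0 h, so both falls are descriptions. The one that rose, named after its values were seen, was miR-155-5p, which is induced in activated immune cells. It went from 1.24 ± 0.192 units without detection to 48.1 ± 19.9 units with detection on 3 of 3 arrays (change 2.78, limma adjusted p = 1.90e-05). This was close to the median change of all kept miRNAs. miR-155-5p was detected on 8 arrays, none of them total RNA at 0 h. It passed the filter only through 96 h arrays, where it was high, so its tests as higher with storage are descriptions. It was higher under all 8 scalings and called under 7. Without DNase it changed by 1.28 (limma adjusted p = 0.0174), was below 0 under 1 of the 8 scalings (-0.58) and was called under 4. All 7 hepatocyte miRNAs, a list that holds miR-101a-3p and miR-101b-3p, fell (median change -2.68), and miR-122-5p, the most characteristic miRNA of hepatocytes, went from 10087 ± 2899 to 4275 ± 1628 units. Both endothelial miRNAs, the arms of miR-126a, fell (median change -3.87). The 3 miRNAs of the miR-101 family fell as well, with changes of -2.26 for miR-101a-3p, -2.35 for miR-101c and -1.91 for miR-101b-3p. In stored tissue with DNase digestion miR-101a-3p (41.9 units) and miR-101c (24.3 units) were still detected in 3 of 3 mice, whereas miR-144-3p was not. Without DNase the storage counts of these lists were the same, with medians of -2.74 for red blood cells, -3.12 for white blood cells, -2.67 for hepatocytes, -3.51 for endothelium and -2.38 for the miR-101 family, against 2.16 for all kept miRNAs. Beside these counts, 21.6% of all 631 kept miRNAs were called lower and 60.4% higher with DNase. The shares without DNase were 23% and 60.5%. Without normalization the list medians with DNase stayed below 0, but fewer members passed in every list except the endothelial one, where both were called lower. Called lower were 5 of 9 for red blood cells, 4 of 6 for white blood cells, 3 of 7 for hepatocytes and 0 of 3 for the miR-101 family. In the red and in the white blood cell list 1 miRNA each was called higher. Of all 631, 95 were called lower and 487 higher.

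The second question was whether DNase digestion changed the signals. At 0 h miR-144-3p was higher without DNase in every mouse, 3.34-fold, 2.90-fold and 1.88-fold in mice 7, 9 and 10. miR-451a was also higher without DNase in every mouse, but only 1.26-fold, 1.097-fold and 1.31-fold. The groups with and without DNase overlapped for both. On the glog2 scale the differences were 1.33 for miR-144-3p (SE 0.50, limma adjusted p = 0.572) and 0.27 for miR-451a (SE 0.34, limma adjusted p = 0.991), and neither was called. limma called 0% of the 631 miRNAs in this comparison, in which 30 had an unadjusted p under 0.05, miR-144-3p among them. Under the other 7 scalings limma called 0 to 10, and the exact rank test cannot pass with 3 arrays against 3. Upper-quartile scaling gave a difference for miR-144-3p that passed, at 1.25 over the miRNAs found on every array (limma adjusted p = 0.0221) and at 1.45 over all of them (limma adjusted p = 0.0187). The summed signal was higher without DNase as well, and as a share of it miR-144-3p was 0.0136% ± 0.00588 with DNase and 0.0201% ± 0.00559 without (SD, n = 3), which overlap.

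At 96 h miR-144-3p was again higher without DNase in 3 of 3 mice, from no detection with DNase to 2.56 to 7.89 units without. The 2 groups did not overlap. On the glog2 scale the difference was 2.68 (SE 0.50, limma adjusted p = 0.000905). Set against the floor after vsn scaling it was 2.98-fold. That fold is not a bound, because only 1 of 3 arrays without DNase was detected. It belonged to the 6.18% of miRNAs called higher. The call was lost under 4 other scalings and with normexp background correction, and the difference was 0 with upper-quartile scaling over the miRNAs found on every array, where both groups lay at the floor. miR-451a differed by 0.26 (SE 0.34, limma adjusted p = 0.654), with overlapping groups. Among the 6 white blood cell miRNAs miR-155-5p was lower without DNase at 96 h (change -1.67, limma adjusted p = 0.0268, not called without mouse 7 or without mouse 9) and the others were not called. None of the 9 red blood cell miRNAs was called in either DNase comparison, with median changes of 0.17 at 0 h and 0.48 at 96 h. Of all 631 kept miRNAs, 0 were called at 0 h, and 39 were called higher and 29 lower at 96 h.

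The third question was how the locus behaved when small RNAs were removed. Untreated depleted RNA was compared with total RNA at 0 h with DNase, from other pieces of the same livers. The signal of miR-451a fell 30.8-fold and 47.6-fold in mice 7 and 9. In mouse 10 the ratio was 151-fold, and its size is uncertain because the depleted signal lay near background. On the glog2 scale its change was -5.59 (SE 0.34, limma adjusted p = 4.01e-11). miR-144-3p was no longer detected in any mouse. It changed by -5.10 (SE 0.50, limma adjusted p = 4.89e-08), and its level in total RNA was at least 9.76-fold higher after vsn scaling. Both belonged to the 24.4% of miRNAs called lower. miR-144-3p had passed the filter only through total RNA at 0 h, so its test here is a description as well. The residual miR-451a signal was 0.0619% ± 0.0298 (SD, n = 3) of the summed signal in untreated depleted RNA, against 0.366% in total RNA. Only 43 of 90 miR-451a spots were well above background there, and on the array of mouse 10 none were, although the miRNA was flagged as detected.

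Of the 9 red blood cell miRNAs, 5 fell with depletion and 4 did not pass (median change -2.30), against a median of -0.17 for all kept miRNAs. Beside this and the list counts that follow, 24.4% of all 631 were called lower. miR-16-5p changed by -4.03 (limma adjusted p = 1.19e-06), from 214 to 11.95 units. miR-15b-5p, which shares the seed of miR-16-5p, changed by -1.19 (limma adjusted p = 0.11), from 64.1 to 26.2 units. All 7 hepatocyte miRNAs fell (median change -4.89), as did both endothelial ones (-3.95), 4 of 6 white blood cell miRNAs (-2.97) and all 3 of the miR-101 family (-6.92). Among these white blood cell miRNAs, miR-142a-3p and miR-142a-5p passed the filter only through total RNA at 0 h, so their tests are descriptions. With upper-quartile scaling over the miRNAs found on every array the red blood cell list had 3 called lower and 2 called higher (median change -0.35), against 82 called lower and 252 higher of all 631 (median change 0.30). miR-101a-3p, at 58.7 ± 17.7 units in total RNA, was like miR-144-3p not detected on any of the depleted arrays.

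**Figure D4:**
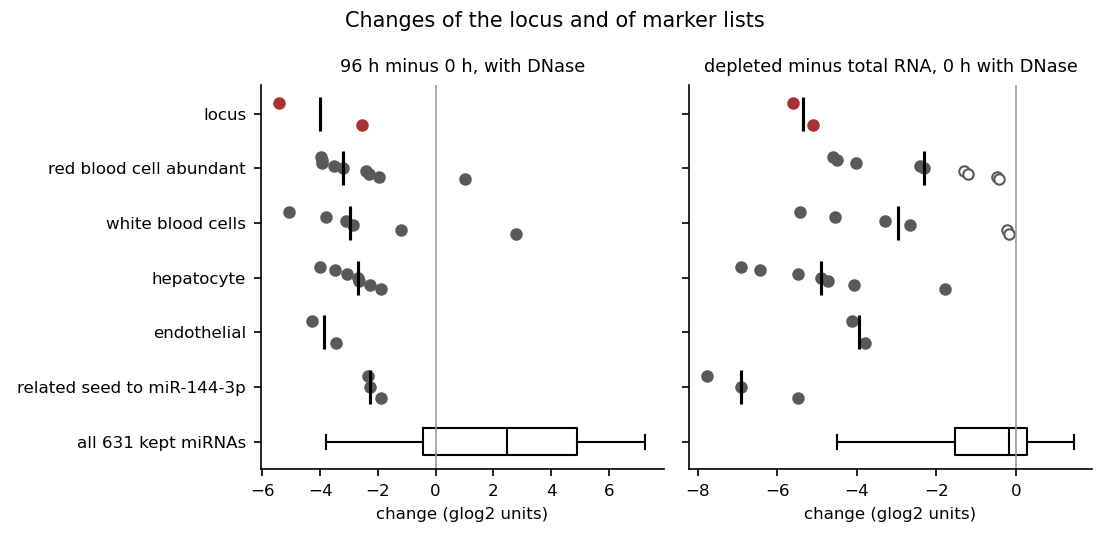
Change on the glog2 scale (horizontal axes) of each kept miRNA of the locus (red) and of the marker lists (grey) with storage (left) and with depletion of small RNAs (right), filled where called by limma and open where not. Ticks mark list medians, and the box gives the quartiles and the 5th to 95th percentiles of all 631 kept miRNAs. The locus and most list members lie left of 0 in both panels, with miR-486a-5p at 1.02 (below 0 under 3 of the 8 scalings) and miR-155-5p at 2.78 to the right for storage.

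The last comparisons asked whether incubation or RNase, which breaks long RNA into fragments, gives signals for these miRNAs in depleted RNA. Incubation at 0 U with a second isolation changed miR-451a by 0.37 (SE 0.34, limma adjusted p = 0.992) and miR-144-3p by 0.42 (SE 0.50, limma adjusted p = 0.992) from untreated depleted RNA. Neither was called, and 1.74% of all kept miRNAs were. With RNase the unscaled miR-451a signal was higher in every mouse, 1.45-fold, 1.48-fold and 1.47-fold over both doses in mice 7, 9 and 10, and the RNase arrays lay above the 0 U arrays. Without normalization this was a change of 0.55 on the log2 scale (limma adjusted p = 0.225). On the glog2 scale it was 0.09 (SE 0.29, limma adjusted p = 0.894), and with upper-quartile scaling over the miRNAs found on every array it was -1.20 and past the threshold (limma adjusted p = 0.00867), as it was after quantile normalization (-1.41, limma adjusted p = 0.0107). No direction can therefore be given without naming the scaling. As a share of the summed signal, which rose with RNase, miR-451a was 0.0656% ± 0.0140 (SD, n = 3) without RNase, 0.0148% ± 0.00837 after the lower dose and 0.00876% ± 0.00359 after the higher dose.

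miR-144-3p and miR-144-5p were not detected on any of the 6 RNase arrays. Their signals there were -0.88 to -0.40 and -0.25 to 0.12 units. The change of miR-144-3p was -0.61 (SE 0.43, limma adjusted p = 0.287), between groups that were both below background, so no fold is given. Both doses together called 44.7% of all kept miRNAs, and neither member was among them. Of the 9 red blood cell, 7 hepatocyte, 2 endothelial and 3 miR-101 miRNAs, 0 were called, against 1 of the 6 white blood cell miRNAs, miR-155-5p, which was higher (change 1.03, limma adjusted p = 0.0456, called under 2 of the 8 scalings, below 0 under 1, and not called without mouse 7 or without mouse 9). These counts depended on the scaling. With upper-quartile scaling over the miRNAs found on every array 6 red blood cell, 4 hepatocyte, 2 endothelial, 3 white blood cell and 0 miR-101 miRNAs were called lower, against 184 lower and 157 higher of all 631. After quantile normalization 5 red blood cell, 4 hepatocyte, 1 endothelial, 1 white blood cell and 0 miR-101 miRNAs were called lower, against 165 lower and 186 higher. When vsn was fitted to the kept miRNAs the lists had 3 red blood cell, 3 hepatocyte, 1 endothelial, 4 white blood cell and 3 miR-101 miRNAs called lower, against 214 lower and 167 higher.

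Across the 24 arrays the miRNA most like miR-451a on the glog2 scale was miR-21a-5p, broadly expressed and raised in injured tissue (Pearson r = 0.993). It was followed by miR-30e-5p (0.993), miR-192-5p (0.991), miR-15a-5p (0.988) and miR-193a-3p (0.986). The miRNA most like miR-144-3p was miR-142a-3p (0.967), followed by miR-106b-5p (0.964), miR-3968 (0.961), miR-19a-3p (0.954) and miR-130a-3p (0.951). The correlation between miR-144-3p and miR-451a was 0.884, below those of the 5 miRNAs most like each. Arrays of 1 mouse share a slide, all arrays share the differences between groups, and the values are descriptions without a test. Over unscaled signals 4 of the 5 miRNAs named for miR-451a and 2 of the 5 for miR-144-3p were named again. Over the means of the 8 groups these counts were 3, with miR-15a-5p first, and 1, with miR-20b-5p first.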

How the data were processed

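The files hold scanner output of 24 one-colour arrays, made with Agilent Feature Extraction 10.10.1.1 per the file headers. The intensity values deposited by the authors are background-subtracted signals per miRNA, summed over its probes. Their deposited table holds log2 values after vsn, and it was used as an alternative and as a check (lowest correlation with the values here 0.999829). The scanner's summed signal was taken where a miRNA was detected, and otherwise the sum of its probe signals. vsn was fitted in Python 3.11.15 (numpy 2.4.6, pandas 2.3.3, scipy 1.17.1, matplotlib 3.10.9) with 7 rounds on the best-fitting 90% of miRNAs. The 631 miRNAs detected on at least 5 arrays were kept. A miRNA could pass through total RNA at 0 h alone, as miR-144-3p, miR-96-5p, miR-142a-3p and miR-142a-5p did, and their tests as lower are descriptions. miR-155-5p passed only through 96 h arrays, and its tests as higher with storage are descriptions as well. 1 model of 8 group means was fitted with limma 3.58.1 (R 4.3.3, eBayes with trend). Adjusted p-values are Benjamini-Hochberg over the 631, and calls required an adjusted p under 0.05 and a change of at least 1. The scripts were tested on simulated data. No individual array gives a counting depth, so precision rests on 3 arrays per group. The limma p-values rest on 1 spread shared by all 24 arrays, without a term for the mouse. Mouse, slide, scan day, tissue piece and array are mixed in it. The permutation p-values come from exchanging arrays within a mouse, with both DNase states of a liver as separate units. They do not measure the spread between mice.

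Groups came from the labels. For the 2 RNase arrays of mouse 9 the descriptions were followed, and the titles were tried as an alternative. No column of other samples was present. Replicate numbers name the same animals, so the samples are paired: deviations from the group means correlated 0.0914 on average within a mouse and -0.0449 between mice. Alternatives were other scalings, background correction, the filter, the rank test of the methods, the mouse as a block, single probes and leaving out each mouse. The members and the miRNA lists were chosen with earlier results of these data known. The text names the members, the 5 miRNAs most correlated with each tested member, and from each list those with the highest 0 h signal, apart from the exceptions it states. Some list members are also named for how they passed the filter. Lower bounds set a miRNA that was not detected at the lowest signal of any detected miRNA on its array, or at its own signal where higher. This floor is not a detection limit for each miRNA, so the bounds hold only relative to it. Sequences were matched by name to RefSeq (3 of 3 members).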

Additional observations from a re-analysis of the deposited data

How the results depend on the processing

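Of 318 values under alternatives, 288 stayed on the same side of the threshold. Among these, 25 had the opposite sign and 20 were 0, none of them called. Without normalization miR-451a changed with storage by -0.74 with and -0.89 without DNase, and with spike-in scaling by -0.73 and -0.84, under the 2-fold threshold. With normexp miR-144-3p changed by -0.92 with storage and DNase, by -0.89 with depletion and by 0.10 between DNase states at 96 h, all under that threshold. That last difference was 0 with upper-quartile scaling over miRNAs found on every array, 0.0588 over all miRNAs, 0.37 after quantile normalization and 1.29 when vsn was fitted to the kept miRNAs, none called, while at 0 h it passed at 1.25 and 1.45 under the first and second of these. The exact rank test cannot go below 0.1 with 3 against 3, so the storage changes of miR-144-3p (-5.42 and -4.07) and miR-451a (-2.56 and -2.57), the depletion changes (-5.10 and -5.59) and the 96 h DNase difference (2.68) did not pass. For RNase, miR-451a turned to -1.20 for both doses and -1.36 for 0.67 U with upper-quartile scaling over miRNAs found on every array, to -1.41 and -1.65 after quantile normalization, and to -1.05 for 0.67 U when vsn was fitted to the kept miRNAs, where miR-144-3p was called at -2.05 for both doses, -1.70 for 0.026 U and -2.40 for 0.67 U, all below background. The cause of these shifts was not tested. Single probes lowered the bound on the difference between members with DNase from 2.10 to 0.40 and 0.61. Leaving out 1 mouse gave 1.61 to 2.50 with and 1.55 to 2.35 without DNase, and changed no call of the members. With the mouse as a replicate block no call changed (miR-451a -2.56, limma adjusted p = 1.40e-06, and miR-144-3p -5.42, limma adjusted p = 1.34e-08, for storage with DNase).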
